A study of Mus musculus with 5 samples.

Results

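The genes described here are type I interferon stimulated genes, a set of 36 symbols chosen by name with earlier results of these data known. They were read from the count table of regulatory T cells (Tregs) of neonatal mouse skin and skin-draining lymph nodes. A row was found for 35 of the 36 among the 24084 genes of the table, and Rnf213 was not analysed here. Of the 35, 34 passed the filter on low counts. Ifi44, with 75 counts in 1 lymph node library and 0 in the other libraries, did not. Tregs were sorted from mice of the Foxp3-DTR/GFP line at an age of 13 days, in which cells that express Foxp3 also make green fluorescent protein and the receptor for diphtheria toxin. All 5 libraries share this genotype, and no treatment is named in the labels for either group. There were 3 libraries of skin-draining lymph node Tregs and 2 of skin Tregs. How many animals stand behind a library, and whether they were pooled, is not given in the labels. The p-values therefore cover only how far these 5 libraries vary, and part of that may be technical.

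Type I interferons are secreted by cells that sense viral or self nucleic acids, and they bind a receptor of the subunits IFNAR1 and IFNAR2. The kinases TYK2 and JAK1 then phosphorylate STAT proteins, STAT2 among them, which join IRF9 in the factor ISGF3. ISGF3 binds the interferon-stimulated response element (ISRE) in the promoters of its target genes, and many targets, such as STAT2, IRF9 and IRF7, belong to the same loop. A low tonic level of interferon signalling keeps some of these genes on in resting lymphocytes. Interferon gamma acts mainly through a different element (GAS), of which the Irf1 promoter is a textbook case.

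The promoter sequences are shown first. The choice by name did not read them, but many of these names are known as targets of ISGF3, which binds the ISRE. A share of ISRE matches above that of all genes is therefore no independent result. RefSeq promoters (build GRCm38.p6, 250 bases before to 50 after the start) were matched for 27 of the 36 symbols. The ISRE core was searched as GAAA, any 2 bases and GAAA again, on both strands, with overlapping matches allowed. It was found for 12 of the 27 genes (44.4%), against 3.99% of the 27025 genes in the table of promoters. The GAS core, TTCNNNGAA, which reads alike on both strands, was found for 9 of the 27 (33.3%), against 9.55% of all genes. The windows below run 5′ to 3′ in the direction of the gene and lie before its start, with the matched bases in capitals. The first 3 belong to genes with almost no counts in skin, the next 3 to genes that were detected in at least 1 skin library, and the last is the GAS match of Irf1.
Ifit1, chr19:34640767-34640831, plus strand: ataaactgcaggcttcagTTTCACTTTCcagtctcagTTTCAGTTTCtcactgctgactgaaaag
Ifit3, chr19:34583355-34583434, plus strand: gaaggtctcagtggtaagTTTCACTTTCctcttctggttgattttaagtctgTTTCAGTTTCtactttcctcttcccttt
Rsad2, chr12:26456545-26456590, minus strand: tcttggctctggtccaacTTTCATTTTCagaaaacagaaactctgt
Isg15, chr4:156200857-156200914, minus strand: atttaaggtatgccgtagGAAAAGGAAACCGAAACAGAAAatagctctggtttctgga
Bst2, chr8:71537569-71537620, minus strand: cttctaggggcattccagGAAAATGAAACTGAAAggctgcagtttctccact
Stat2, chr10:128270258-128270303, plus strand: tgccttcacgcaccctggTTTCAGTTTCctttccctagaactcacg
Irf1, chr11:53769906-53769950, plus strand: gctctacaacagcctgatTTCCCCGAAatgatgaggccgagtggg
The Isg15 window holds 3 overlapping matches, from 78 to 57 bases before the start, and the Ifit1 and Ifit3 windows hold 2 separate ones each. A match is a description of the letters and not a shown binding site.

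Counts assigned to genes ranged from 12305644 to 14595018 in the lymph node libraries, and the skin libraries had 10787378 and 10468795. At least 1 count was found for 12173 to 12540 genes in lymph node but for 9894 and 9192 in skin. The labelled cell type was checked by Foxp3, at 89.6 to 99.8 CPM in lymph node and 77.96 and 117.7 CPM in skin, and by Il2ra, at 1212 to 1460 CPM and 1105 and 1302 CPM. All 10 Treg and T cell markers in the table were detected in every library. Ctla4 and Ikzf2 rose in skin (adjusted p = 0.0272 and 0.0484 by edgeR). Lrrc32 had 235 to 286 CPM in lymph node and 0.562 and 42.8 CPM in skin, and Cd3d, Cd3e, Cd3g and Cd4 were lower in both skin libraries than in any lymph node library; none of these 5 passed the threshold. CPM are counts per 1000000 counts after TMM scaling. Markers of several other cell types differed between the tissues. Of 23 myeloid markers 20 and 19 were detected in the skin libraries, with a summed 6010 and 8941 CPM, against 9 to 12 markers and 209 to 549 CPM in lymph node. Of the myeloid sums Cd74, which B cells also express, made up 193 to 518 CPM in lymph node and 3672 and 5688 CPM in skin. Keratinocyte markers summed to 12.3 to 13.8 CPM in lymph node and to 134 and 173 CPM in skin. Most of the skin sums was Krt14, with 68.9 and 110 CPM, and Sfn, with 28.8 and 57.0 CPM. Krt1 and Dsg3 had no count in any library, and Krt10 was found in lymph node only. The markers of plasmacytoid dendritic cells, the main producers of type I interferon, did not move as 1: Runx2, Tcf4 and Lair1 were higher in both skin libraries than in any lymph node library without passing the threshold, Ccr9 fell from 30.4, 39.7 and 51.4 CPM to 0, and Siglech was at 9.17 and 0 CPM in skin and at 2.88, 0 and 0 CPM in lymph node. Of 8 B cell markers 6 to 8 were detected in lymph node, with a sum of 83.5 to 245 CPM, and only Cd79b in skin, with 22.1 and 72.3 CPM; Ms4a1 and Cd79a were at 0 in both skin libraries. Cd8a fell from 7.23, 12.2 and 22.9 CPM to 0 in skin (adjusted p = 0.0491 by edgeR), while Cd8b1 had 22.2 and 0 CPM in skin. Among markers of natural killer (NK) and innate lymphoid cells, Nkg7 and Gata3 rose (adjusted p = 0.0440 and 0.0421 by edgeR). Ncr1, Klre1 and Klra8 had no count in any library, and Eomes was found in lymph node only. Myeloid and B cells also express interferon stimulated genes. Their part in the values below, and that of CD8 T or NK cells, was not tested. In bulk libraries fewer cells of a type and less RNA per cell cannot be told apart.

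In sum the 35 members took 5372, 4483 and 6681 CPM in lymph node libraries 1, 2 and 3, and 3168 and 2789 CPM in the skin libraries. All lymph node sums lay above both skin sums. Samhd1, the most abundant member per library, made up 23.0 to 29.6% of these sums. Without Samhd1 and Irf1, the sums were 2543 to 4258 CPM in lymph node and 1810 and 1584 CPM in skin. Every member had a count in lymph node library 3, and 34 had one in each of the other lymph node libraries, but 28 and 25 had one in the skin libraries. Members under 1 CPM numbered 0 or 1 in each lymph node library, 10 and 16 in skin. The whole table also had fewer genes with a count in skin, 9894 and 9192 against 12173 to 12540 in lymph node.

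Between the tissues, 4 of the 34 tested members fell in skin and 0 rose, by edgeR's quasi-likelihood test with Benjamini-Hochberg adjustment over all 11437 genes tested and a threshold of 0.05. The share of members that fell, 11.8%, stands beside 5.30% of all genes tested lower and 2.40% higher. At an unadjusted p under 0.05, 13 members were lower and 1 was higher, beside 2217 lower and 1155 higher among all 11437 genes tested. DESeq2 called 14 lower and 1 higher (17.7 and 10.8% of all genes), and limma-voom 10 lower and 0 higher (14.6 and 4.95%). The median log2 fold change of the tested members, skin over lymph node, was -0.95, against -0.21 for all genes tested (-1.10 and -0.37 with upper quartile scaling), and 27 members were negative (79.4%, against 55.7% of all genes). The 4 that fell were Rtp4, Irf9, Ifit1 and Samhd1. None of these calls remained on dropping any 1 of the lymph node libraries, where the smallest adjusted p among members was 0.113, 0.115 and 0.115 without library 1, 2 and 3, although 0 genes of the whole table were called in those fits either. With RLE, upper quartile or plain library size scaling the same 4 members were called lower and 0 higher (lower 5.33, 5.65 and 5.33%, higher 2.64, 2.01 and 2.27% of all genes). Without a filter on low counts 3 members were lower (1.26% of all genes lower, 0.954% higher), and with a stricter filter 8 were (9.94 and 4.27%). With the replicate number as a block 0 members were called (0.0874% of all genes lower, 0.0962% higher). All 4 were called without skin library 1 or without skin library 2, where 20 and 16 members were lower (31.8 and 24.8% of all genes) and 1 and 2 were higher (16.9 and 14.4%).

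**Figure D1:**
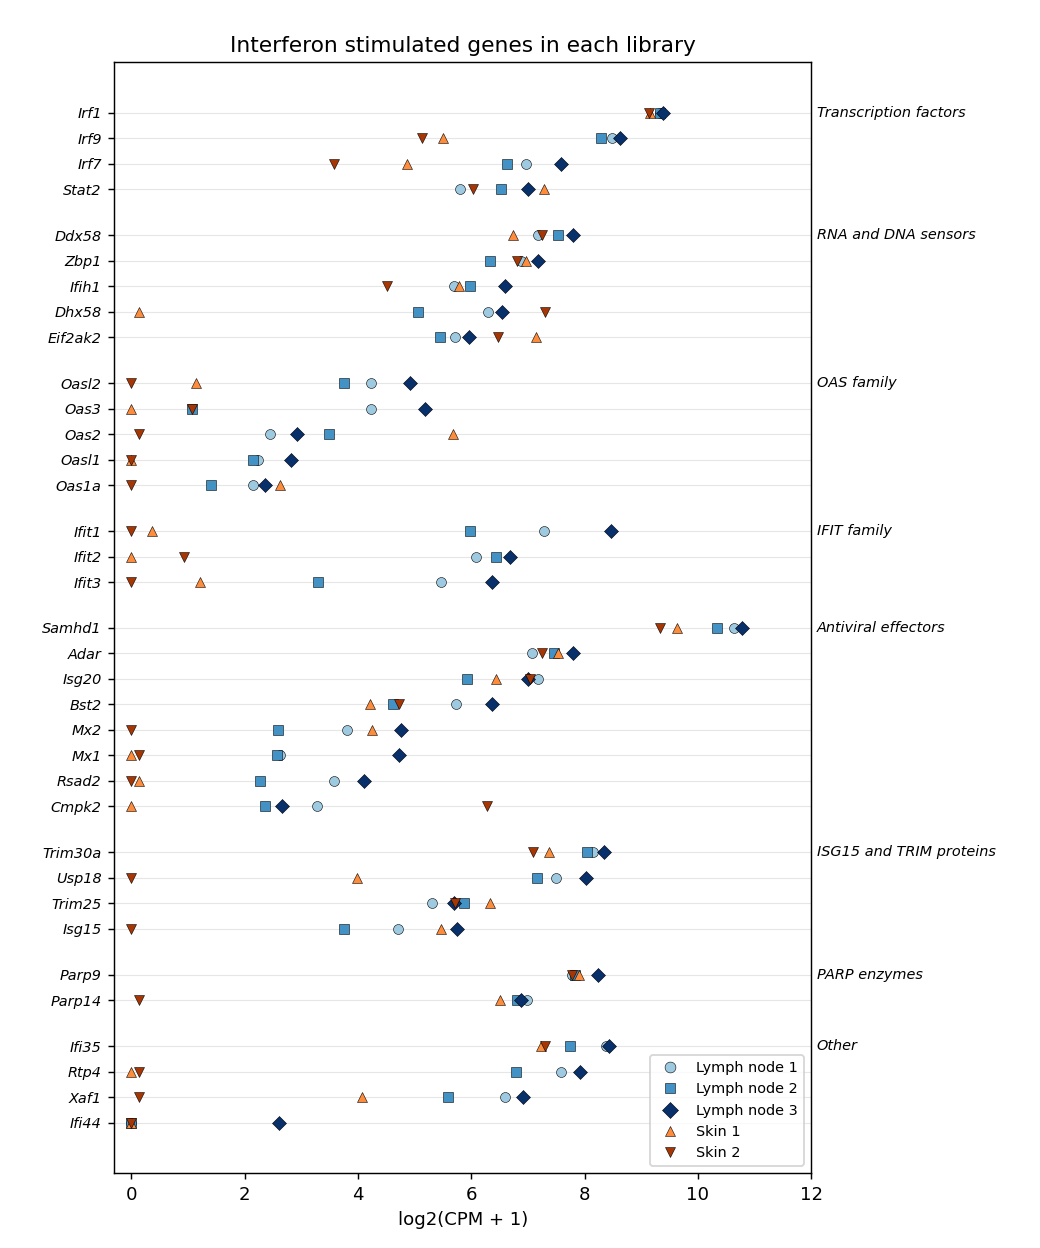
Level of each member in each library as log2(CPM + 1), 1 symbol per library, with blue symbols for the 3 lymph node and orange symbols for the 2 skin libraries, grouped by what the genes encode. The IFIT genes, Rtp4, Mx1 and Rsad2 sit at or near 0 in both skin libraries, while Irf1, Parp9, Adar and Zbp1 have skin values near the lymph node values.

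The transcription factors differed among themselves. Irf9 (chromosome 14, 55603571 to 55610030, plus strand, GRCm38) encodes the DNA-binding subunit of ISGF3, a partner of STAT2. It had 355, 312 and 395 CPM in lymph node and 44.4 and 33.9 CPM in skin. The groups were far apart. The means were 354 ± 41.8 CPM (SD, n = 3) and 39.1 ± 7.43 CPM (SD, n = 2), a log2 fold change of -3.18 (SE 0.30, adjusted p = 0.0224 by edgeR). Irf7, which amplifies interferon production and is itself an ISGF3 target, had 124, 97.8 and 191 CPM in lymph node and 28.1 and 10.98 CPM in skin. Its groups did not overlap either, but it did not pass the threshold (log2 fold change -2.81, SE 0.63, adjusted p = 0.0539). Stat2 was at 54.6, 90.8 and 128 CPM in lymph node and 155 and 64.6 CPM in skin, so that the skin values straddled the lymph node values (adjusted p = 0.815). Irf1, a factor induced mainly by interferon gamma and by antigen receptor signals, had 641, 641 and 669 CPM in lymph node and 567 and 563 CPM in skin. The skin values were below all lymph node values by a small step (log2 fold change -0.20, SE 0.17, adjusted p = 0.493). Irf9 thus passed the threshold and its partner Stat2 did not. Whether Irf9 differed from Stat2 in its change was not tested.

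The nucleic acid sensors had counts in both skin libraries, for Dhx58 a single count in skin library 1, and none of the 5 passed the threshold. Ddx58, the RNA helicase RIG-I, had 144, 184 and 222 CPM in lymph node and 105 and 151 CPM in skin. Ifih1, the helicase MDA5, had 50.8, 62.2 and 95.6 CPM against 53.8 and 21.8 CPM. For both genes the groups overlapped (adjusted p = 0.376 and 0.440). Dhx58 (LGP2), a related helicase that modulates both, had 77.1, 32.3 and 92.3 CPM in lymph node, but 1 count and 1573 counts (157 CPM) in skin libraries 1 and 2. Zbp1, a sensor of Z-form nucleic acid that can trigger cell death, had 116, 79.7 and 144 CPM in lymph node and 124 and 110.3 CPM in skin, inside the lymph node range. Eif2ak2, the kinase PKR that stops translation on double-stranded RNA, is the only tested member whose skin values, 140.5 and 88.0 CPM, all lay above the lymph node values of 51.7, 42.6 and 61.5 CPM. In all genes tested 16.8% had this order. Its log2 fold change of 1.14 (SE 0.43) did not pass the threshold by edgeR (adjusted p = 0.152). Eif2ak2 was the 1 member that DESeq2 called higher, as it did 10.8% of all genes.

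The 2′-5′ oligoadenylate synthetase (OAS) genes, whose products make the second messenger that activates RNase L, were less abundant in lymph node than the IFIT genes. In skin both families were low, apart from Oas2 in library 1. Per kilobase of exon, their means in lymph node ran from 1.59 CPM for Oas2 to 3.11 CPM for Oasl2, against 21.5 to 71.3 CPM for the IFIT genes. Oasl1, an OAS-like protein without the synthetase activity, had 53, 44 and 89 counts in lymph node and 0 in skin, at least 30.8-fold lower in skin against a floor of 3 counts over the 2 skin libraries (adjusted p = 0.0524). Oasl2 had 17.8, 12.5 and 29.1 CPM in lymph node and 1.22 and 0 CPM in skin. Oas3 had 17.7, 1.10 and 35.2 CPM in lymph node, a range that reached down to the skin values of 0 and 1.10 CPM. Oas1a (3.44, 1.65 and 4.14 CPM) and Oas2 (4.42, 10.3 and 6.59 CPM) were low in lymph node as well. In skin both depended on the library: Oas1a had 55 and 0 counts and Oas2 538 and 1 counts in skin libraries 1 and 2. None of the 5 passed the threshold.

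The IFIT genes, which encode tetratricopeptide proteins that bind foreign RNA ends and lie together on chromosome 19, were nearly without counts in skin. Ifit1 (34640871 to 34650009, plus strand) had 2200, 790 and 5171 counts in lymph node, or 155, 61.9 and 351 CPM, and 3 and 0 counts in skin. Summed over libraries, lymph node was 1350 times skin (95% interval from the counts, 462 to 6547), and the adjusted p was 0.0424 by edgeR. Ifit2 had 66.9, 85.5 and 101 CPM in lymph node and 0 and 9 counts in skin (adjusted p = 0.0543). Ifit3 had 43.1, 8.86 and 81.0 CPM in lymph node and 14 and 0 counts in skin (adjusted p = 0.135). For all 3 genes every skin value was below every lymph node value, an order that 33.5% of all genes tested showed. Of the 50-base windows in the annotated transcripts of Ifit3, 51.2% also occur in other genes, chiefly Ifit3b, and of those of Oas1a 57.6%, chiefly in Oas1g. Since reads without a unique position were not counted, the levels of these 2 genes are uncertain; for Ifit1 and Ifit2 the shares were 7.13 and 0%.

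Among antiviral effectors, Samhd1 fell, Mx1 and Rsad2 were near 0 in skin without passing the threshold, and Adar and Isg20 had overlapping values. Samhd1 (chromosome 2, 157097533 to 157135265, minus strand), a hydrolase of deoxynucleotides, had 1591, 1299 and 1754 CPM in lymph node and 790.4 and 643 CPM in skin. The means were 1548 ± 231 CPM (SD, n = 3) and 717 ± 104 CPM (SD, n = 2), a log2 fold change of -1.11 (SE 0.22, adjusted p = 0.0484 by edgeR), the call closest to the threshold, which was lost without a filter on low counts. Rsad2 (viperin), which makes a chain-terminating nucleotide, had 156, 49 and 238 counts in lymph node and 1 and 0 in skin, so that lymph node was 219.8 times skin (95% interval from the counts, 39.3 to 8702), and the adjusted p was 0.0582. Its neighbour Cmpk2, a nucleotide kinase transcribed from the opposite strand on chromosome 12, had 124, 53 and 78 counts in lymph node but 0 and 765 in skin. The 2 genes thus had opposite patterns in skin library 2. Mx1, a GTPase that blocks influenza and related viruses, had 73, 63 and 372 counts in lymph node and 0 and 1 in skin, so that lymph node was 252 times skin (95% interval from the counts, 45.04 to 9976), and the adjusted p was 0.0666. Mx2, annotated as a polymorphic pseudogene, had 186, 64 and 384 counts in lymph node and 191 and 0 in skin.

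Bst2 (tetherin), a membrane protein that holds virions at the cell surface, had 51.8, 23.4 and 81.8 CPM in lymph node and 17.5 and 25.6 CPM in skin (log2 fold change -1.28, SE 0.77, adjusted p = 0.345). Isg20, an RNA exonuclease, had 144, 59.8 and 128 CPM against 86.0 and 129.5 CPM. Adar, which edits adenosine to inosine in double-stranded RNA, had 134, 176 and 220.2 CPM against 185 and 151 CPM. For Isg20 and Adar the skin values lay within the lymph node range, with log2 fold changes of -0.03 (SE 0.49) and -0.07 (SE 0.32), whose sign turned under other settings. Of the exon bases of Adar, 1365 overlap those of Chrnb2 on the opposite strand, and the strand setting of the counting is not given in the sources used here.

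In the ISG15 system both genes were found in 1 skin library only, while both TRIM genes were found in both. Isg15, the ubiquitin-like protein that is conjugated to other proteins during the interferon response, had 25.2, 12.5 and 52.9 CPM in lymph node, 43.0 CPM (459 counts) in the first skin library and 0 counts in the second. Usp18, the protease that removes ISG15 and also blocks the receptor subunit IFNAR2, had 178, 143 and 259 CPM in lymph node, and 158 and 0 counts in skin, or 14.8 CPM in library 1. All its lymph node values were above the skin values, but the spread in skin left an SE of 1.92 on a log2 fold change of -4.70 (adjusted p = 0.178). Trim25, a ligase for RIG-I, was at 38.3, 57.9 and 50.9 CPM and at 79.6 and 51.4 CPM. Trim30a, a TRIM protein that dampens Toll-like receptor signalling, had 283, 262 and 322 CPM in lymph node and 164 and 134 CPM in skin, without overlap (log2 fold change -0.95, SE 0.25, adjusted p = 0.0680).

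Parp9, an inactive ADP-ribosyltransferase that pairs with the ligase DTX3L, had 219, 227 and 299 CPM in lymph node and 238 and 219 CPM in skin. Parp14, another ADP-ribosyltransferase of the same locus on chromosome 16, had 126, 110.5 and 117 CPM in lymph node, the tightest spread of a member at 100 CPM or more apart from Irf1, with 960 and 1 counts in skin. Of the exon bases of Parp9, 458 overlap Dtx3l on the opposite strand. Ifi35 had 331, 212 and 346 CPM in lymph node and 149.9 and 157 CPM in skin (log2 fold change -0.95, SE 0.31, adjusted p = 0.106). Xaf1, an antagonist of the apoptosis inhibitor XIAP, had 95.4, 47.0 and 119.6 CPM in lymph node and 15.7 and 0.0999 CPM in skin (adjusted p = 0.271). Ifi44 is the member described at the start, with 5.10 CPM in lymph node library 3 alone.

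Rtp4 (chromosome 16, 23520291 to 23614222, plus strand), a receptor chaperone that is induced strongly by type I interferon, had the lowest fitted log2 fold change. It had 2723, 1391 and 3539 counts in lymph node, or 191, 109 and 240.4 CPM, and 0 and 1 counts in skin. The mean in lymph node was 180.2 ± 66.4 CPM (SD, n = 3). Lymph node was 3798 times skin (95% interval from the counts, 681 to 150020), and the adjusted p was 0.0224 by edgeR. Of its exon bases 296 overlap another gene model, and 11.6% of its 50-base windows occur elsewhere, chiefly in Gm45338. The intervals and floors hold only the error of counting: amplified copies were not told apart by molecular identifiers, and RNA lost before sequencing does not enter them.

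**Figure D2:**
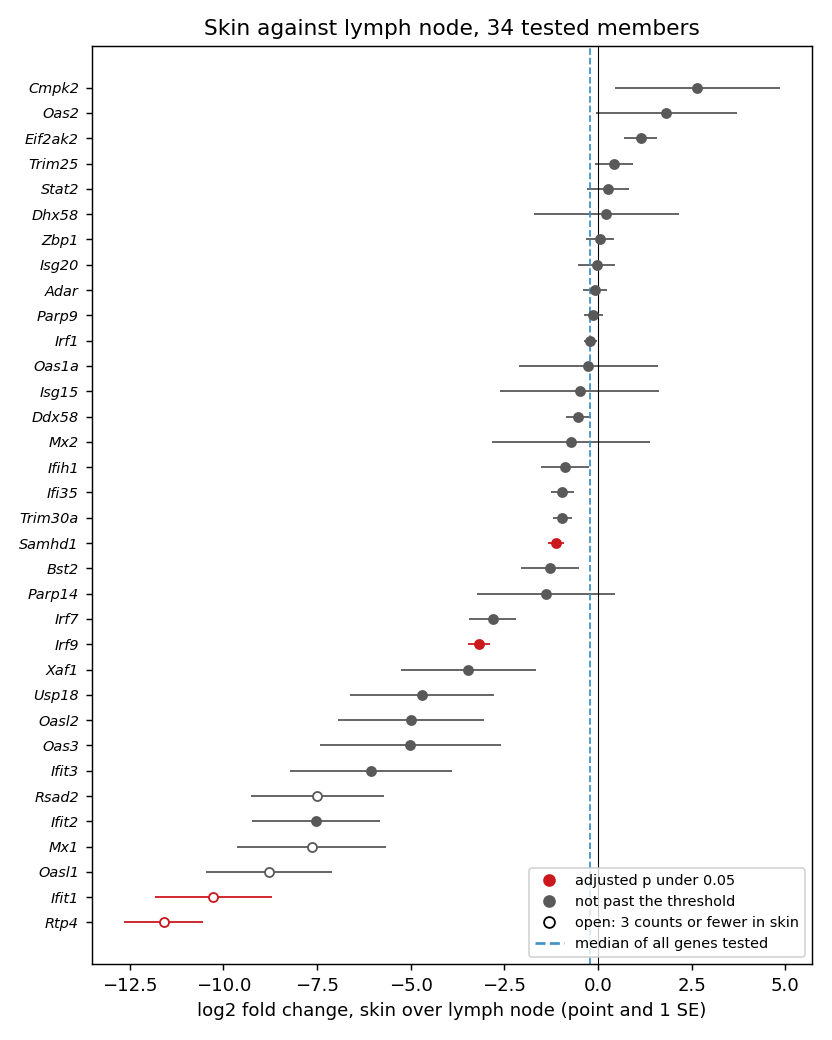
Log2 fold change, skin over lymph node, of the 34 tested members by edgeR, with bars of 1 SE; red points passed the threshold, and open points rest on 3 counts or fewer in skin. Rtp4, Ifit1, Irf9 and Samhd1 are red, and the dashed line is the median of all genes tested, -0.21.

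Within the lymph node group the members differed together. Of the 34 tested, 29 were highest in lymph node library 3 (85.3%), where 29.9% of all genes tested were, and 26 were lowest in library 2 (76.5%, against 34.2% of all genes). No tested member was lowest in library 3, as 30.4% of all genes were. The median ratio of library 3 to library 2 was 1.78 for members and 0.999 for all genes tested. Among the genes that differed most were Oas3 (32.1 times), Ifit3 (9.14 times), Ifit1 (5.67 times), Mx2 (5.20 times), Mx1 (5.12 times), Isg15 (4.21 times) and Rsad2 (4.21 times). Irf1 (1.04 times), Parp14 (1.06 times) and Ifit2 (1.18 times) differed least upward, and Oas2 (0.642 times) and Trim25 (0.880 times) were lower in library 3. The median coefficient of variation over the 3 libraries was 35.9% for members and 27.05% for all genes. Library 3 also had the largest sums of B cell markers (245 CPM, against 132 and 83.5 CPM in libraries 1 and 2) and of myeloid markers (549 against 241 and 209 CPM). Most of each myeloid sum was Cd74, which B cells also express, with 518 CPM in library 3 and 215 and 193 CPM in libraries 1 and 2. Ms4a1 was at 38.9 CPM in library 3 and at 4.50 and 8.78 CPM in the others. The part of these cells in the difference between libraries was not tested. With 3 libraries of 1 group, this is a description with no test.

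**Figure D3:**
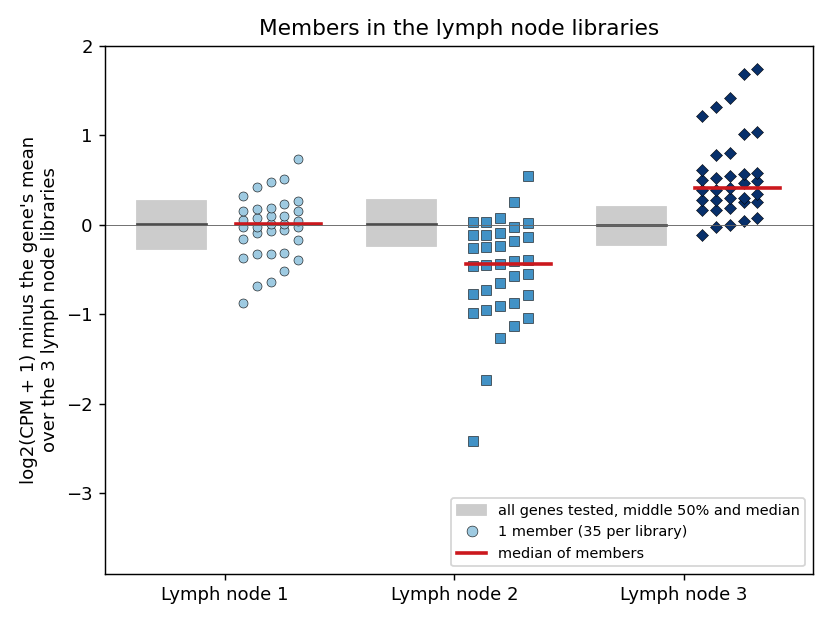
Deviation of each of the 35 members from its own mean over the 3 lymph node libraries, in log2(CPM + 1); symbols are members, red lines their median, and grey boxes the middle 50% and median of all genes tested. Members sit mostly above 0 in library 3 and below 0 in library 2, while the grey boxes are centred near 0 in all 3.

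The 2 skin libraries held different subsets of the members. Counting 10 CPM or more in 1 library and under 1 CPM in the other as discordant, 8 of the 35 members were discordant, namely Isg15, Mx2, Oas2, Usp18, Dhx58, Xaf1, Parp14 and Cmpk2. All but Dhx58 and Cmpk2 were found in library 1, and those 2 in library 2. In the tested members the share was 23.5%, beside 17.0% of all genes tested. A further 10 members were under 2 CPM in both libraries, and 16 were at 1 CPM or more in both. In the tested members these shares were 26.5 and 47.1%, beside 18.9 and 58.3% of all genes tested. Among the 25 members at 20 CPM or more in lymph node, 4 (16.0%) were under 1 CPM in the first skin library, 8 (32.0%) in the second and 3 (12%) in both. The same shares of the 6660 genes at that level were 8.80, 16.1 and 4.23%. Genes listed in 1 skin library and missing from the other were thus common in the whole table as well, and the mean of a discordant member describes neither library.

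**Figure D4:**
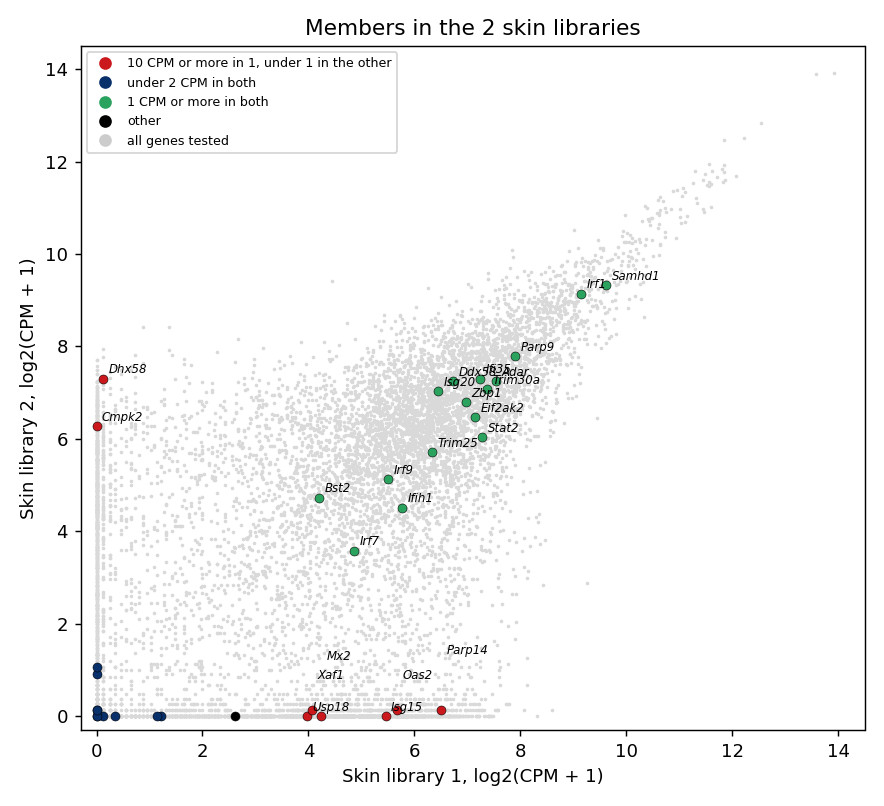
Level of each member in skin library 1 (horizontal) against skin library 2 (vertical), both as log2(CPM + 1), over all genes tested in grey. Red members, such as Dhx58 and Parp14, lie along an axis because they had 10 CPM or more in 1 library and under 1 CPM in the other.

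The list of the receptor and its kinases, upstream of the members, also held interferon gamma receptor genes, another kinase gene and STAT genes. None of its 9 tested genes passed the threshold, and 7 had a positive fold change (median 0.18). Ifnar1 had 240.4, 471 and 272 CPM in lymph node and 557 and 147 CPM in skin. Ifnar2 had 38.5, 40.6 and 45.0 CPM in lymph node and 2.43 and 194 CPM in skin, so that the skin libraries were split for both subunits, in opposite directions. Jak1 had 625, 651 and 548 CPM against 736 and 642 CPM.

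Of the 21 interferon genes in the table, 19 had no count in any library. The exceptions were Ifng, with 4.07, 3.21 and 1.83 CPM in lymph node and 0 in skin (adjusted p = 0.0564), and Ifnk, seen in lymph node library 2. A count of 0 over the 2 skin libraries allows up to 0.145 CPM, and over the 3 lymph node libraries up to 0.0719 CPM. Among 6 negative regulators none passed. Ptpn6 (SHP-1), a phosphatase, had 492, 592 and 637 CPM against 329 and 382 CPM (adjusted p = 0.0986), and Ptpn2 had 366, 285 and 245.5 CPM against 431 and 408 CPM (adjusted p = 0.257). None of 8 further genes of the IRF family and its binding proteins passed. Irf2 had 203 and 114 CPM in skin against 176 ± 22.4 CPM (SD, n = 3) in lymph node. For Irf4 the skin libraries were split, with 113 and 5.89 CPM against 111 ± 30.6 CPM (SD, n = 3) in lymph node. Of 13 tested genes that induce interferon, 9 had a negative fold change (69.2%, against 55.7% of all genes). Their median log2 fold change was -0.97, against -0.21 for all genes tested. Only Traf3, an adaptor of Toll-like and RIG-I-like receptors, passed (adjusted p = 0.0496 by edgeR). It rose from 68.9 ± 14.7 CPM (SD, n = 3) to 269 ± 124 CPM (SD, n = 2). Its skin values were 356 and 181 CPM. With the replicate block, or on dropping any 1 of the lymph node libraries, Traf3 was not called. In the latter fits 0 genes of the whole table were.

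A list of further interferon stimulated genes outside the 36 had a negative median. It was chosen, like the members, with earlier results of these data known, so it is no independent check of them. Of its 60 tested genes 10 fell (16.7%), 1 rose and 49 did not pass, with a median log2 fold change of -0.87, beside 5.30% lower and 2.40% higher among all genes. Lgals9 (galectin 9) fell from 962 ± 115 CPM (SD, n = 3) to 155 ± 7.80 CPM (SD, n = 2), with an adjusted p of 0.0221 by edgeR. Pml, the organizer of nuclear bodies, fell from 124 ± 20.9 CPM to 3.97 ± 0.182 CPM (adjusted p = 0.0253). Sp110, another nuclear body gene, fell from 163 ± 9.997 CPM to 25.4 ± 2.53 CPM (adjusted p = 0.0381). Ifitm2, whose product blocks virus entry, rose from 6.58 ± 1.83 CPM to 116 ± 41.2 CPM (adjusted p = 0.0411), in libraries where the summed myeloid markers were higher, whose part was not tested. On dropping any 1 of the lymph node libraries the whole list was without calls.

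**Figure D5:**
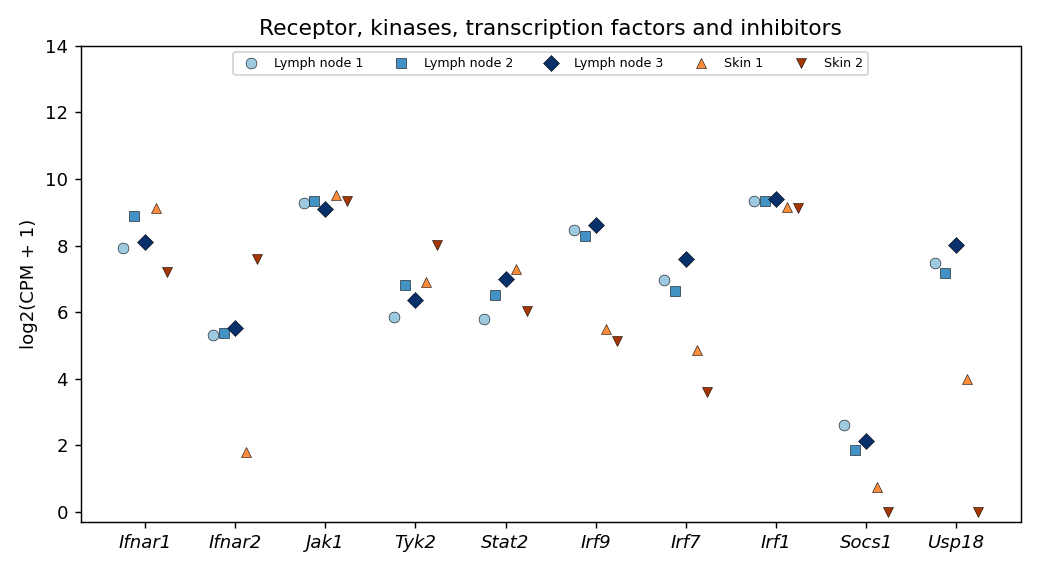
Levels of receptor, kinase, transcription factor and inhibitor genes in each library as log2(CPM + 1), blue for lymph node and orange for skin. Irf9 and Irf7 show a gap between lymph node and skin, the values of Jak1 and of Irf1 lie close together, and the 2 skin libraries lie apart for Ifnar2.

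Members with and without the ISRE core in these windows had similar medians, with wide ranges. The 12 tested members with a match had a median log2 fold change of -0.92, and the 13 tested members with a promoter but without a match had a median of -1.11. Ifit1 and Isg15, both with several matches in the windows shown above, had 3 and 459 counts in skin library 1 and 0 each in skin library 2. Irf9, which fell, and Ifit2 had no ISRE match in these windows, which says only that these letters are not there. The 9 tested members with a GAS match had a median of -0.26, and the 16 without one a median of -2.996; no test was made of either split.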

How the data were processed

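Sorted cells were frozen and a company purified the RNA on columns; a SMARTer Ultra Low Input kit, which amplifies by PCR, gave the cDNA, per the labels' protocols. The submitters' processing notes name, for the authors' steps, mm10 and these tools: TopHat2 2.0.12, HTSeq 0.6.1, CASAVA 1.8.2, Bowtie2 2.1.0.0, SAMtools 0.1.19.0; no options or strand setting are named. The deposited file gives raw counts for each symbol, not normalized, under a header shifted by 1 cell. Its 5 summary rows were left out: reads without a unique position were 64.5 to 72.0% of all counts, those outside genes 8.35 to 14.0%, those in genes 19.3 to 21.7%.

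Counts were fitted across all genes with edgeR 4.0.16 (R 4.3.3) after filterByExpr (minimum count 10) and TMM scaling, by the quasi-likelihood test with Benjamini-Hochberg adjustment. The SE was taken from the F statistic as |log2 fold change| over its square root. CPM use TMM-scaled totals of the tested genes. DESeq2 1.42.0, limma-voom (limma 3.58.1), other scalings and filters, a replicate block and leaving out each library were alternatives. No permutation test was made, since 2 libraries against 3 are too few to pass 0.05. Members and gene lists were chosen with earlier results of these data known. Every member is named; of each other pathway list, the 4 smallest adjusted p past the threshold at most, and failing any the 2 highest levels; Ifnar1, Ifnar2, Foxp3 and Il2ra always; 1 pathway gene that this names is not reported here. Ifnk and the markers other than Foxp3 and Il2ra were named after their values were seen. Positions, exon lengths and shared 50-base windows come from GENCODE M21 (GRCm38, the assembly also called mm10), matched by symbol, with windows of both strands.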

Additional observations from a re-analysis of the deposited data

How the results depend on the processing

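Skin rests on 2 libraries, in which 8 of 35 members were discordant and 10 were under 2 CPM in both. Of all genes tested 17.0% were discordant and 18.9% were under 2 CPM in both. A count of 0 over both skin libraries allows up to 0.145 CPM. Against 4 members lower and 0 higher, DESeq2 called 14 lower and 1 higher, limma-voom 10 lower, the stricter filter 8 lower, and the fit with a replicate block 0 lower; leaving out 1 library gave 0 to 20 lower and 0 to 2 higher. Over the 13 alternatives the adjusted p ran from 1.71e-13 to 0.115 for Ifit1, from 1.75e-29 to 0.136 for Irf9, from 9.38e-13 to 0.115 for Rtp4 and from 0.000114 to 0.712 for Samhd1, with a negative fold change in every one.

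Of the other pathway genes, 2 were higher and 10 lower. The higher count was 1 with upper quartile scaling, 1 with library size only, 7 with DESeq2, 1 with no low count filter and 0 with the replicate block, and 0 to 13 on leaving out 1 library. The lower count was 23 with DESeq2, 6 with no low count filter and 0 with the replicate block, and 0 to 43 on leaving out 1 library. For all genes, 275 higher and 606 lower became 1235 and 2027 with DESeq2, 566 and 1665 with limma-voom, 136 and 179 with no low count filter, 428 and 997 with the stricter filter, and 11 and 10 with the replicate block; leaving out 1 library gave 0 to 2110 higher and 0 to 3955 lower.

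The labels do not say that a replicate number marks a pair. The deviations of same-numbered libraries from their group means correlated at -0.0252 and -0.0236 over all genes. With 2 skin libraries the deviations of 1 mirror those of the other, so these values cannot tell whether the numbers mark pairs.

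Fold changes near 0 or resting on 1 skin library turned sign. With limma-voom the log2 fold change was -1.34 for Oas2, -3.71 for Dhx58, -1.59 for Cmpk2, -0.094 for Ifnar1, -1.05 for Ifnar2 and 0.0023 for Isg20, which was 0.019 with RLE scaling and 0.019 with DESeq2. With the replicate block it was 0.19 for Isg20, -1.25 for Oas2, -3.07 for Dhx58, 0.034 for Parp9, 0.13 for Adar, -1.46 for Cmpk2, -0.23 for Ifnar1 and -0.84 for Ifnar2. With upper quartile scaling it was -0.10 for Zbp1, -0.021 for Ifnar1 and -0.12 for Foxp3, and with library size only -0.015 for Foxp3. Leaving out 1 library gave ranges of -11.61 to 0.50 for Isg15, -0.37 to 0.23 for Isg20, -0.50 to 0.76 for Stat2, -10.58 to 0.27 for Mx2, -8.32 to 0.73 for Oas1a, -6.02 to 2.82 for Oas2, -9.36 to 1.22 for Dhx58, -0.20 to 0.035 for Parp9, -0.14 to 0.26 for Zbp1, -0.24 to 0.12 for Adar, -9.31 to 3.65 for Cmpk2, -0.63 to 0.20 for Irf2, -4.24 to 0.018 for Irf4, -1.16 to 0.76 for Ifnar1, -4.09 to 2.22 for Ifnar2 and -0.29 to 0.31 for Foxp3. The cause was not tested. The lone skin library in 2 of these fits is assumed to vary like lymph node.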
